A study of Canis lupus familiaris with 16 samples.

Results

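The ABC transporters are a family of membrane pumps that each carry an ATP-binding cassette, and all genes of the count table whose symbol reads ABC, a subfamily letter from A to G and a number were taken as the family here. This rule found 44 of the 41818 genes listed, with 11 in subfamily A, 9 in B, 11 in C, 4 in D, 1 in E, 3 in F and 5 in G. Most family members use ATP to move a substrate across a membrane: subfamily A moves lipids, B and C hold the bile salt, drug and organic anion pumps and the mitochondrial carriers, D moves fatty acids into peroxisomes and G moves sterols. The single E gene and the F genes keep the cassette but lack membrane-spanning segments, and they act in translation. *ABCB1*, several C genes and *ABCG2* are known for expelling anticancer drugs from cells.

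Archived canine soft tissue sarcomas, fixed in formalin and embedded in paraffin, gave RNA from 16 tumors that was sequenced on the Ion platform, and the question put to the data was which genes set 3 tumor types apart. The types were fibrosarcoma (FS, a tumor of collagen-producing cells), peripheral nerve sheath tumor (PNST) and perivascular wall tumor (PWT, from the cells around vessels), and no normal tissue was among the samples analysed here. By the molecular identity in the labels, S1-02, S1-11, S1-12 and S2-06 were FS from dogs aged 9 to 13 years. S1-03, S1-04, S1-05, S1-09, S1-10 and S2-07 were PNST from dogs aged 8 to 13 years, and S1-07, S2-03, S2-04, S2-08, S2-09 and S2-11 were PWT from dogs aged 2 to 14 years. The molecular identity differed from the histological diagnosis for S1-10, a PWT by histology, and S2-08, an FS by histology, which the study had moved on the strength of their expression in these same data. The prefix of the tumor names was spread unevenly, with S1 on 3 of 4 FS, 5 of 6 PNST and 1 of 6 PWT. S1-04 and S1-05 carry identical label entries and may come from 1 dog.

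Between 507728 (S1-12) and 4311876 (S1-03) reads per tumor were counted on genes, and 33 of the 44 members had the 10 counts in at least 4 tumors that the test required. The labelled types were checked against their defining markers. Of 6 fibroblast markers, *LUM*, *COL1A1* and *COL3A1* were called higher in FS, while *DCN*, *PDGFRA* and *PI16* had negative log2 fold changes there (-1.38, -0.89 and -1.22) that edgeR did not call. DESeq2 called 3 of the 6 higher and 1 lower in FS, and 5 of the 6 had an edgeR unadjusted p-value under 0.05. The Schwann cell factor *SOX10* was low in every tumor (1.09 to 7.53 CPM, the scaled count per 1e6 counts). The Schwann marker *S100B* had a log2 fold change of 2.28 in PNST (SE 0.75, unadjusted p = 0.00702, edgeR adjusted p = 0.205), with 76.3 CPM in S1-09, 21.3 in S2-07 and 1.45 to 11.4 in the other 4 PNST. Only 3 of the 5 Schwann markers had enough counts to be tested, in a comparison in which edgeR called no gene at all. Of 8 pericyte and smooth muscle markers, 0 were called higher in PWT, while *MCAM* and *ACTA2* were called higher in FS. The median log2 fold change of the 8 was -0.99 in PWT, beside -0.08 for all genes, and 1.15 in FS, beside 0.00. An edgeR unadjusted p-value under 0.05 was reached by 3 of the 8 in PWT and 5 in FS. The 5 skeletal muscle markers summed to 704 CPM in the FS tumor S1-11, against 1.43 to 2.51 CPM in the other 3 FS, and to 406 CPM in the PWT S1-07. Levels are given below as CPM after TMM scaling, which allows 1 gene to be compared between tumors but not 2 genes with each other, since gene length is not taken out.

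Each type was compared with both other types pooled by edgeR's quasi-likelihood test, and a gene was called where the Benjamini-Hochberg adjusted p-value (over 15408 genes) was under 0.05 and the log2 fold change passed 1 in either direction. The 3 comparisons share their tumors and are not independent of each other. For FS, 7 of the 33 ABC genes tested were called (21.2%), beside 9.46% of all genes tested. *ABCA6*, *ABCA8*, *ABCA9*, *ABCB11* and *ABCG4* were lower in FS, which is 15.2% of the ABC genes tested beside 3.68% of all genes. A further 2, among them *ABCC4*, were higher, which is 6.06% beside 5.78% of all genes. At an unadjusted p-value under 0.05, 12 ABC genes (36.4%) stood beside 25.4% of all genes, and DESeq2 called 9 of the 33 beside 11.1% of all genes. The median log2 fold change of the 33 ABC genes in FS was -0.09, and that of all genes was 0.00.

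For PNST, edgeR called 0 ABC genes and 0 of all genes (percent called 0), while 8 ABC genes (24.2%) and 2415 of all genes (15.7%) had an unadjusted p-value under 0.05. A single ABC gene, *ABCA2*, was called for PNST by DESeq2, that is 1 of 33 (3.03%) beside 1.64% of all genes. For PWT, edgeR called 1 ABC gene (3.03%, beside 2.12% of all genes). At an unadjusted p-value under 0.05 there were 11 ABC genes (33.3%) beside 22.4% of all genes, and DESeq2 called 3 (9.09%) beside 5.32%. The median of the 33 log2 fold changes was 0.29 in PNST and -0.28 in PWT, beside -0.06 and -0.08 for all genes. Reads on all 44 genes together made up 1025 to 2478 per 1e6 gene counts in FS, 2556 to 4421 in PNST and 3426 to 5382 in PWT. These totals are not TMM scaled, unlike the CPM of single genes. Unscaled, the FS S1-02 (2469) lay just below the PNST S1-04 (2556). Their TMM factors were 1.02 and 1.07, which reverses their order, so FS and PNST overlap after scaling. In PNST and PWT these totals were carried mostly by *ABCA1*, *ABCA6*, *ABCA8* and *ABCA9*, the 4 genes with the most counts over all tumors. Their share was smaller in FS, where *ABCA6*, *ABCA8* and *ABCA9* were called lower, so the low FS totals partly restate those calls.

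**Figure D1:**
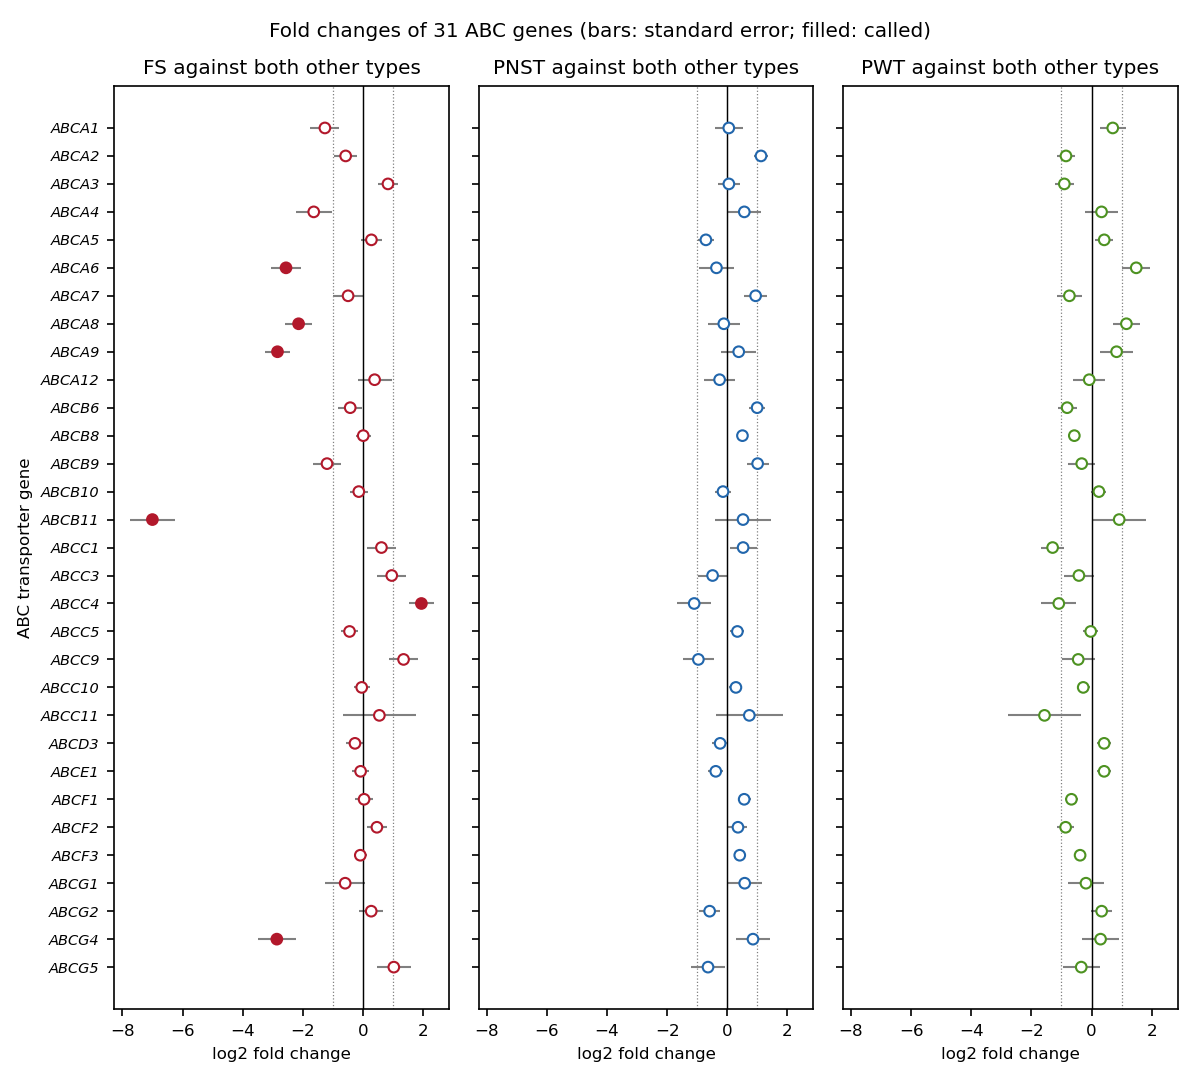
Log2 fold change (x axis) of 31 of the 33 ABC genes tested (y axis) for each tumor type against both other types, with bars of 1 standard error, filled points for called genes and dotted lines at a log2 fold change of 1 in each direction. *ABCB11* at -7.00 in FS stands far from every other point, and the filled points are 6 genes in FS.

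*ABCB11* encodes the bile salt export pump, which is known from the bile canaliculi of the liver. It was listed by the study among genes that set FS apart in these samples, so its direction is no independent evidence. In FS it was at 1.79 CPM in S1-02, 0.548 in S1-11, 0 in S1-12 and 0.475 in S2-06. PNST ranged from 19.8 to 250 CPM with a median of 99.7, and PWT from 100.2 to 198 CPM with a median of 127. All 4 FS lay below all 12 other tumors, a separation seen in the same direction for 1.64% of all genes tested. The mean was 0.704 ± 0.765 CPM (SD, n = 4) in FS and 125 ± 63.8 CPM (SD, n = 12) elsewhere. In edgeR the log2 fold change of FS was -7.00 (SE 0.76, adjusted p = 4.98e-05). Since RNA of the whole section was measured, fewer cells of a type that express a gene and less RNA per cell cannot be told apart, for *ABCB11* and for every gene below.

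The FS value of *ABCB11* rests on few reads. The 4 FS held 7 *ABCB11* counts in all, or 0.964 CPM with an exact Poisson 95% interval of 0.388 to 1.99, which covers counting error only. Of these counts, 5 were in the first of the 3 runs of S1-02 and 0 in its other 2 runs. PNST held 1763 counts and PWT 1269. Within PNST the level spread widely, and the lowest tumors, S1-04 (19.8 CPM) and S1-03 (44.1 CPM), lay below every PWT. S1-05, whose labels match those of S1-04, was at 184 CPM. The separation of FS was seen within each prefix, with at most 1.79 CPM in the 3 S1 FS against at least 19.8 CPM in the other 6 S1 tumors, and 0.475 CPM in S2-06 against at least 78.5 CPM in the other 6 S2 tumors. In the histological groups, which place S2-08 (119 CPM) among FS, the log2 fold change was -2.32 (edgeR adjusted p = 0.253) and the call was lost.

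Hepatocyte markers were not higher where *ABCB11* was high. The hepatocyte gene *TTR* had 0 counts in every tumor and *ALB* a mean of 0.659 ± 1.48 CPM (SD, n = 12) outside FS. The 5 hepatocyte markers listed in the table summed to 18.4 to 44.7 CPM in FS, 7.61 to 22.0 in PNST and 12.5 to 46.8 in PWT. Of 14 bile salt genes, 4 had enough counts to be tested, and 1 was called in FS, *CYP27A1*, a mitochondrial enzyme of bile acid synthesis, which was lower (log2 fold change -1.58, SE 0.46, edgeR adjusted p = 0.0335). 0 of the 4 were called for PNST or PWT by edgeR or DESeq2.

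Among the genes beside *ABCB11* in the RefSeq annotation of the assembly UU_Cfam_GSD_1.0, *DHRS9* shared the lower level in FS and *SPC25* did not. *G6PC2* and *LOC119867826* had too few counts to show a pattern. *G6PC2* and *SPC25* lie on one side, with 1 count in all 16 tumors for *G6PC2* and an FS log2 fold change of 1.25 (SE 0.68, edgeR adjusted p = 0.261) for *SPC25*. On the other side, *LOC119867826*, which overlaps *ABCB11*, had 0 counts. The next protein-coding gene, *DHRS9*, a retinol and steroid dehydrogenase, was also called lower in FS (log2 fold change -2.28, SE 0.56, edgeR adjusted p = 0.0141). *DHRS9* was at 263, 53.2, 27.6 and 437 CPM in S1-02, S1-11, S1-12 and S2-06, and between 507 and 1586 CPM in the other 12 tumors, so that the groups did not overlap.

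**Figure D2:**
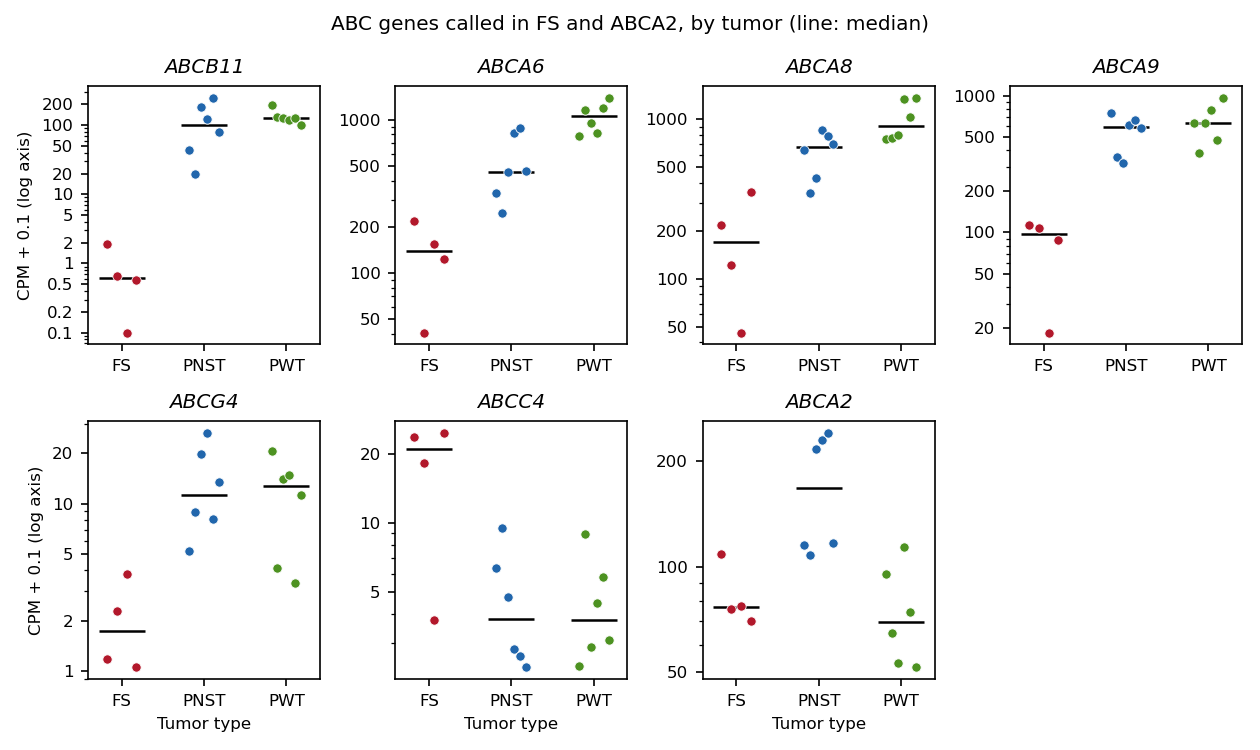
CPM + 0.1 on a log axis in each of the 4 FS, 6 PNST and 6 PWT (x axis) for 6 of the 7 ABC genes called in FS and *ABCA2*, with a point per tumor and a line at the median of each type. *ABCB11* in FS reaches at most 1.79 CPM against at least 19.8 CPM elsewhere, and *ABCC4* in S1-12 (3.68 CPM) lies apart from the other 3 FS.

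*ABCA6*, *ABCA9* and *ABCA8* are closely related members of subfamily A that lie in a row with *ABCA5* in the UU_Cfam_GSD_1.0 annotation, and whose substrates are less well known than those of other members. The study also listed *ABCA9* from these samples. In FS, *ABCA9* was at 114 CPM in S1-02, 107 in S1-11, 18.4 in S1-12 and 87.9 in S2-06. PNST ranged from 324 to 750 CPM (median 592) and PWT from 382 to 967 CPM (median 632). All 4 FS lay below all other tumors, and PNST and PWT overlapped widely. The mean in the other tumors was 7.27 times that of FS, and the log2 fold change of FS was -2.84 (SE 0.42, edgeR adjusted p = 0.000553). *ABCA6*, *ABCA9* and *ABCB11* were the 3 of 33 ABC genes (9.09%) with all FS below all other tumors, beside 1.64% of all genes tested.

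*ABCA6* was at 219 CPM in S1-02, 40.6 in S1-11, 153 in S1-12 and 123 in S2-06. PNST ranged from 245 to 876 CPM (median 455) and PWT from 776 to 1388 CPM (median 1049). FS was again below every other tumor, though S1-04 at 245 CPM lay close to S1-02. FS had a log2 fold change of -2.56 (SE 0.50, edgeR adjusted p = 0.00348). For PWT it was 1.49 (SE 0.46, edgeR adjusted p = 0.0795), which edgeR did not call and DESeq2 did. The median of PWT was the highest of the 3 types, but 2 PNST, S1-09 (822 CPM) and S1-10 (876 CPM), reached into the range of PWT.

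*ABCA8*, known to move cholesterol and other lipids out of cells, was at 218, 122, 46.0 and 352 CPM in S1-02, S1-11, S1-12 and S2-06. PNST ranged from 344 to 864 CPM (median 672) and PWT from 749 to 1367 CPM (median 911). S2-06 at 352 CPM overlapped the lowest PNST, S1-04, at 344 CPM. FS had a log2 fold change of -2.14 (SE 0.46, edgeR adjusted p = 0.00614) and 1.16 in PWT (SE 0.44, edgeR adjusted p = 0.134).

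*ABCA5*, at one end of the row, did not show this pattern. It was at 25.1, 34.5, 33.1 and 56.1 CPM in FS, with a median of 26.4 CPM in PNST and 34.4 in PWT. Its log2 fold change was 0.28 in FS (SE 0.34, edgeR adjusted p = 0.656) and -0.71 in PNST (SE 0.27, unadjusted p = 0.0182, edgeR adjusted p = 0.247). Beyond *ABCA8*, *FAM20A*, *PRKAR1A* and *WIPI1* had log2 fold changes of 0.55 to 1.43 in FS with edgeR adjusted p-values of 0.0960 to 0.241. *LOC119873180* between *ABCA6* and *ABCA9* had 16 counts in all.

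The 3 calls were kept without S1-10 and S2-08, with the prefix added to the model and after thinning every tumor to the total of S1-12, and all 3 were lost in the histological groups. The 6 fibroblast markers summed to 80999 CPM in S1-11 and to 13415 to 17331 CPM in the other 3 FS, against 10044 to 23938 in PNST and 7404 to 16565 in PWT. The medians were 16973 CPM in FS, 16267 in PNST and 9364 in PWT, and the part of fibroblasts in these results was not tested. Within that list *DCN*, a matrix proteoglycan, had a mean of 1252 ± 1203 CPM (SD, n = 4) in FS and 3272 ± 832 CPM (SD, n = 12) elsewhere (edgeR adjusted p = 0.107).

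The transporters that load cholesterol onto lipoproteins are *ABCA1* and *ABCG1*, with *ABCG4* as a relative best known from brain. *ABCG4* was at 1.08, 2.19, 3.68 and 0.950 CPM in S1-02, S1-11, S1-12 and S2-06. In PNST it ranged from 5.12 to 26.5 CPM (median 11.1) and in PWT from 3.27 to 20.5 CPM (median 12.6). FS was lowest throughout apart from S1-12, which overlapped S2-09 at 3.27 CPM. S1-12 held the fewest reads, but all FS values of *ABCG4* rest on few counts. They are 3, 4, 2 and 2 counts in S1-02, S1-11, S1-12 and S2-06, or 11 in all. In FS the log2 fold change of *ABCG4* came to -2.86 (SE 0.63, edgeR adjusted p = 0.00709), and its neighbors *PDZD3*, *NLRX1*, *HINFP* and *C2CD2L* were not called.

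*ABCA1* split the FS. S1-02 (732 CPM) and S2-06 (598 CPM) lay within the range of the other 12 tumors (527 to 2004 CPM), while S1-11 (120 CPM) and S1-12 (88.4 CPM) lay far below it. Its log2 fold change in FS was -1.26 (SE 0.49, edgeR adjusted p = 0.104), and the gene was called by DESeq2 and by edgeR without S1-02. *ABCG1* varied widely inside every type, from 1.10 to 56.3 CPM in FS, 6.94 to 92.7 in PNST and 14.2 to 53.0 in PWT, and its smallest adjusted p-value was not under 0.05 in any comparison. The paired intestinal and biliary sterol pumps *ABCG5* and *ABCG8* reached at most 8.22 and 1.64 CPM.

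A list of 15 genes of sterol efflux and its control by LXR receptors, which includes *ABCA1* and *ABCG1*, had 14 members tested. By edgeR, *SREBF2*, the transcription factor of sterol synthesis, was called higher in FS (log2 fold change 1.02, SE 0.23, edgeR adjusted p = 0.00914). So was the lipoprotein *APOE* (2.45, SE 0.63, edgeR adjusted p = 0.0191). DESeq2 called only 1 of the 14 higher in FS, and 1 lower, *ABCA1*. The value of *APOE* was set by S1-02, since the mean of FS was 311 ± 538 CPM (SD, n = 4) and the median 45.9 CPM, close to the median of 56.3 CPM elsewhere. DESeq2 called 1 gene of the list lower in PWT, and edgeR called 0 of the 14 for PNST or PWT, where 1 and 5, neither *ABCA1* nor *ABCG1* among them, had an unadjusted p-value under 0.05.

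*ABCA2*, a lipid transporter of endosomes that is abundant in the myelin-forming cells of the nervous system, was listed by the study for PNST from these samples. In PNST it was at 115 CPM in S1-03, 108 in S1-04, 217 in S1-05, 230 in S1-09, 241 in S1-10 and 117 in S2-07. In FS it was at 109, 75.7, 77.3 and 69.8 CPM, and PWT ranged from 51.6 to 114 CPM (median 69.5). S1-05, S1-09 and S1-10 stood above every tumor of the other types, whereas S1-03, S1-04 and S2-07 were level with S1-02 and with the PWT S2-08 (114 CPM). The mean was 171 ± 64.1 CPM (SD, n = 6) in PNST and 75.4 ± 24.7 CPM (SD, n = 6) in PWT.

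The log2 fold change of *ABCA2* in PNST was 1.12 (SE 0.24), with an unadjusted p = 0.000154 and an edgeR adjusted p = 0.106. It ranked 22nd of all genes by p-value in that comparison, and DESeq2 called it (adjusted p = 0.00508). The study made its list with DESeq2 on these same samples, so the DESeq2 call repeats that listing and is no independent evidence. S1-10, the highest tumor, was a PWT by histology. Over 28 alternatives the log2 fold change stayed between 0.68 and 1.22, and DESeq2 was the only one to call it. Of 9 myelin and Schwann genes, 6 were tested and 0 were called for PNST by edgeR or DESeq2, with 1 at an unadjusted p-value under 0.05. Their summed level was 181 to 717 CPM in PNST, 162 to 223 in FS and 174 to 359 in PWT.

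Other lipid transporters of subfamily A were not called by edgeR. The surfactant lipid transporter *ABCA3* was at 64.5, 43.3, 36.8 and 19.0 CPM in FS and had a median of 26.5 CPM in PNST and 18.9 in PWT, with a log2 fold change of -0.90 in PWT (SE 0.32, edgeR adjusted p = 0.109). *ABCA4*, which flips retinoids in photoreceptors, was at 2.51, 2.19, 0 and 15.7 CPM in FS against 5.72 to 31.1 CPM elsewhere (log2 fold change -1.64, SE 0.61, edgeR adjusted p = 0.0916). DESeq2 called *ABCA4* in FS. *ABCA7* had a log2 fold change of 0.94 in PNST (SE 0.37, edgeR adjusted p = 0.256), and *ABCA13* stayed at or below 3.68 CPM.

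**Figure D3:**
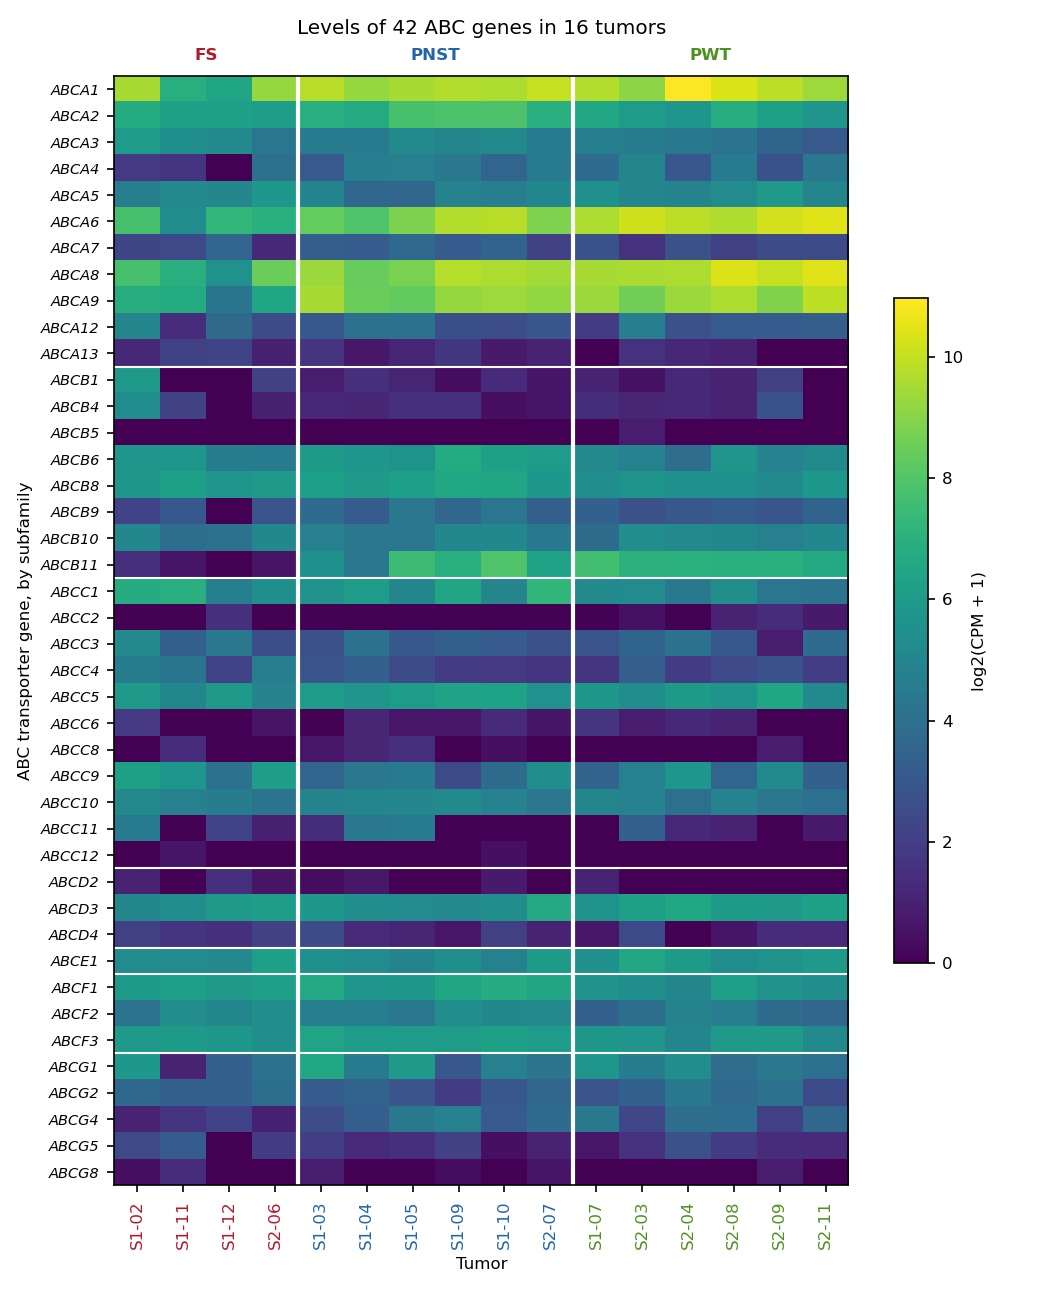
Heat map of log2(CPM + 1) for 42 of the 44 ABC genes (rows, by subfamily) in the 16 tumors (columns, grouped by type). *ABCB11* is dark in the 4 FS and bright elsewhere, *ABCB1* and *ABCB4* are bright in S1-02 alone (58.4 and 39.1 CPM), and *ABCB5*, *ABCC12* and *ABCG8* stay near 0 throughout.

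The drug efflux pumps were examined one by one. *ABCB1*, which encodes P-glycoprotein, the multidrug pump of gut, kidney and the blood-brain barrier, had 197 counts in all 16 tumors, of which 163 (82.7%) were in the FS tumor S1-02. Its level was 58.4 CPM in S1-02 and 0, 0 and 3.33 CPM in S1-11, S1-12 and S2-06. In PNST it ranged from 0.302 to 1.89 CPM and in PWT from 0 to 3.27 CPM. S1-02 was thus far above each of the other 15 tumors, which did not differ visibly by type. The 3 runs of S1-02 gave 62.4, 62.7 and 51.8 reads per 1e6 gene counts, so the value was not that of 1 run.

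*ABCB4*, the phosphatidylcholine pump of bile that neighbors *ABCB1*, followed the same tumor. It was at 39.1 CPM in S1-02 and at most 5.72 CPM in the other 15, with 109 of its 153 counts (71.2%) in S1-02. The next gene on that side, *CROT*, a peroxisomal acyltransferase, was also highest in S1-02, at 85.7 CPM against 5.57 to 45.6 CPM elsewhere. *TMEM243*, *DMTF1*, *RUNDC3B*, *SLC25A40*, *DBF4* and *ADAM22* were within the range of the other tumors in S1-02. Neither *ABCB1* nor *ABCB4* reached 10 counts in 4 tumors, so neither was in the main test. Without the filter edgeR called both higher in FS, and DESeq2 called *ABCB4* higher, with most counts of both genes in S1-02. Reads that fit both of these related genes equally would not have been counted for either.

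**Figure D4:**
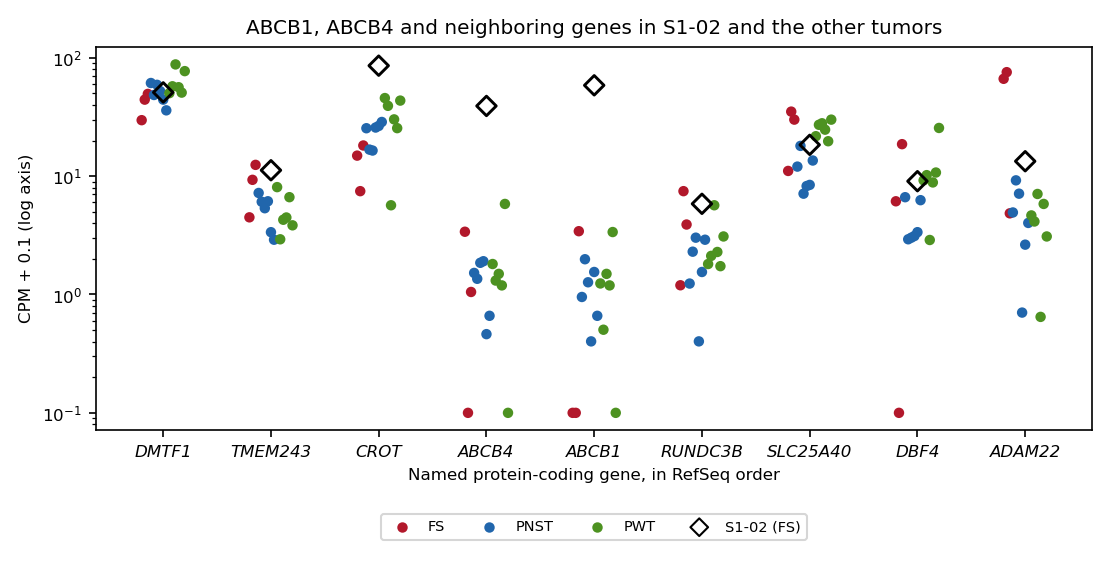
CPM + 0.1 on a log axis for *ABCB1*, *ABCB4* and the 7 named genes around them (x axis), with an open diamond for the FS tumor S1-02 and a point for each of the other 15 tumors. The diamond is above all points for *CROT* (85.7 CPM), *ABCB4* (39.1 CPM) and *ABCB1* (58.4 CPM) and within them for the other 6 genes.

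*ABCC4*, an exporter of cyclic nucleotides, prostaglandins and nucleoside drugs, was called higher in FS by edgeR and by DESeq2. It was at 23.7 CPM in S1-02, 18.1 in S1-11, 3.68 in S1-12 and 24.7 in S2-06. PNST ranged from 2.24 to 9.43 CPM (median 3.69) and PWT from 2.28 to 8.88 CPM (median 3.68). FS was higher in 3 of 4 tumors, and S1-12, the shallowest, lay at the median of the other types with 2 counts. In FS its log2 fold change was 1.94 (SE 0.42, edgeR adjusted p = 0.00573). *ABCC4* was no longer called in the histological groups, after thinning to the total of S1-12, or in the S1 tumors alone, though its log2 fold change stayed between 1.70 and 2.43 over 27 alternatives.

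*ABCC1* encodes a glutathione-conjugate pump that is present in most tissues. It was at 110, 118, 25.8 and 43.2 CPM in S1-02, S1-11, S1-12 and S2-06, from 30.8 to 147 CPM in PNST (median 57.4) and from 17.2 to 41.5 CPM in PWT (median 28.4). The PWT were low with little spread, and each of the other types held tumors within the range of PWT and tumors far above it. For PWT it gave a log2 fold change of -1.29 (SE 0.39, edgeR adjusted p = 0.0760), which DESeq2 alone called.

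*ABCC3*, a pump of conjugated bile acids and drugs, was at 34.4, 9.32, 20.3 and 5.23 CPM in FS. PNST ranged from 5.61 to 16.7 CPM (median 7.49) and PWT from 0.818 to 16.7 CPM (median 8.80), and the types overlapped (FS log2 fold change 0.96, SE 0.48, edgeR adjusted p = 0.220). *ABCC5*, a nucleotide and heme exporter, was at 59.5, 31.8, 58.9 and 29.0 CPM in FS, with medians of 65.2 CPM in PNST and 52.8 in PWT (FS log2 fold change -0.44, SE 0.27, edgeR adjusted p = 0.320). *ABCC10* kept within 15.0 to 36.2 CPM in all 16 tumors (PNST log2 fold change 0.29, SE 0.22, edgeR adjusted p = 0.521). *ABCG2*, the breast cancer resistance protein, was at 11.8, 9.32, 9.21 and 14.7 CPM in FS and ranged from 2.72 to 11.2 CPM in PNST and 4.49 to 20.9 CPM in PWT (PNST log2 fold change -0.58, SE 0.35, edgeR adjusted p = 0.418). *ABCC2*, the canalicular anion pump, had 7 counts in all.

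*ABCC11*, a pump known from apocrine glands of the skin, was set by single tumors rather than by type. It was at 21.9 CPM in S1-02, 0 in S1-11, 3.68 in S1-12 and 0.950 in S2-06. In PNST it was at 19.8 CPM in S1-04 and 21.6 in S1-05 and at most 1.71 CPM in the other 4. Among PWT, S2-03 had 9.29 CPM and the others at most 1.39 CPM. *ABCA12*, which loads lipids into the lamellar granules of the epidermis, was highest in the same 5 tumors, with 30.8 CPM in S1-02, 12.9 in S1-12, 15.4 in S1-04, 16.4 in S1-05 and 25.0 in S2-03, against 1.64 to 8.98 CPM in the other 11. These were also the 5 tumors with the highest sum of 7 keratinocyte markers, 606 to 1137 CPM against 4.18 to 68.5 CPM elsewhere, and *KRT5*, a keratin of basal epidermis, was at 164 to 326 CPM in them and at most 0.950 CPM elsewhere. *ABCC11* in S1-12 is 2 counts, and the part of keratinocytes in these values was not tested. Neither gene was called in any comparison (*ABCC11* in PWT, log2 fold change -1.56, SE 1.20, edgeR adjusted p = 0.458; *ABCA12* in FS, 0.39, SE 0.57, edgeR adjusted p = 0.727), and *ABCC11* overlaps *LONP2* in the RefSeq annotation.

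**Figure D5:**
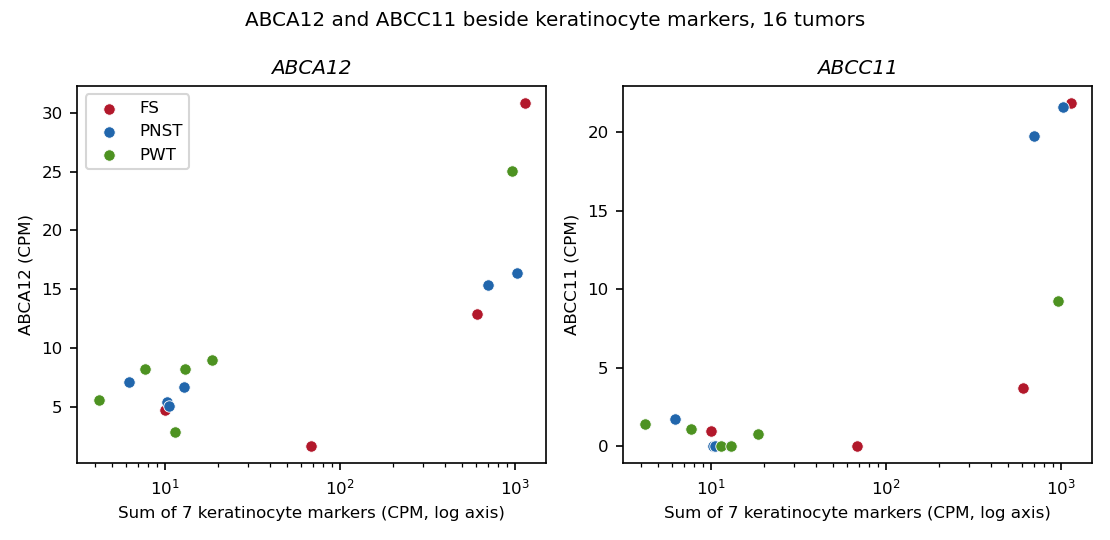
CPM of *ABCA12* (left) and *ABCC11* (right) on the y axis against the summed CPM of 7 keratinocyte markers on a log x axis, with a point per tumor colored by type. S1-02, S1-12, S1-04, S1-05 and S2-03 lie to the right at 606 to 1137 CPM of markers and hold the 5 highest values of each gene.

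Of 16 xenobiotic and glutathione genes, 14 were in the table and 12 were tested. edgeR called 0 of them in each of the 3 comparisons. An unadjusted p-value under 0.05 was reached by 2 of the 12 in FS, 3 in PNST and 6 in PWT, beside 25.4%, 15.7% and 22.4% of all genes. Of those in PWT, *ARNT* and *NFE2L2* were higher and *KEAP1*, *GSS*, *GSR* and *NQO1* were lower. DESeq2 called 1, in PWT.

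*ABCC8* and *ABCC9* do not pump but form the sulfonylurea receptors of ATP-sensitive potassium channels. *ABCC9*, the form of muscle and vessel wall, was at 74.6 CPM in S1-02, 52.6 in S1-11, 16.6 in S1-12 and 68.9 in S2-06. PNST ranged from 4.53 to 42.6 CPM (median 16.9) and PWT from 9.73 to 53.0 CPM (median 19.0). S1-02 and S2-06 stood above the other types, S1-11 was level with the PWT S2-04 and S1-12 lay among the low tumors. In FS its log2 fold change was 1.35 (SE 0.47, edgeR adjusted p = 0.0739). Leaving out S1-12 or S2-04, adding the prefix as a term or keeping the S1 tumors alone led to a call. *KCNJ8*, the channel pore that pairs with *ABCC9*, was at 1.84 to 17.0 CPM in FS (log2 fold change 1.53, SE 0.78, edgeR adjusted p = 0.231), and *ABCC8* had 14 counts in all.

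*ABCD3*, a peroxisomal importer of branched-chain fatty acids and bile acid intermediates, was at 31.9 CPM in S1-02, 41.1 in S1-11, 58.9 in S1-12 and 67.9 in S2-06. PNST ranged from 34.7 to 97.0 CPM (median 41.9) and PWT from 47.3 to 90.6 CPM (median 68.1), and the 3 types overlapped. It was not called in any comparison (PWT log2 fold change 0.42, SE 0.24, edgeR adjusted p = 0.303). Of 8 peroxisomal partners of the subfamily, 0 were called in any comparison by edgeR or DESeq2, with 1 at an unadjusted p-value under 0.05 for FS, 0 for PNST and 1 for PWT.

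The mitochondrial transporters of subfamily B include *ABCB6*, *ABCB8* and *ABCB10*, known from heme and iron-sulfur metabolism, and 0 of these 3 were called in any comparison. *ABCB6* had medians of 37.8 CPM in FS, 64.8 in PNST and 31.3 in PWT, and S1-09 was highest at 106 CPM (PNST log2 fold change 1.00, SE 0.26, unadjusted p = 0.00137, edgeR adjusted p = 0.154). *ABCB8* had medians of 56.6, 71.5 and 44.7 CPM in FS, PNST and PWT (PWT log2 fold change -0.57, SE 0.18, edgeR adjusted p = 0.0775). *ABCB9*, a peptide transporter of lysosomes, was at 3.59, 7.13, 0 and 6.18 CPM in FS and 8.17 to 19.3 CPM in PNST (PNST log2 fold change 1.01, SE 0.37, edgeR adjusted p = 0.226). Of 8 heme and iron-sulfur partners, 1 was called, the iron importer *SLC25A37*, which was higher in FS (log2 fold change 1.33, SE 0.30, edgeR adjusted p = 0.00783).

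*ABCE1*, which splits ribosomes for recycling, and *ABCF1*, *ABCF2* and *ABCF3*, which act with initiation factors and in the stress response of translation, were counted in every tumor. Over all 16 tumors *ABCE1* ran from 27.2 to 93.3 CPM and *ABCF2* from 9.68 to 41.3 CPM. *ABCF3* was at 43.2 to 62.5 CPM in FS, 64.3 to 83.3 CPM in PNST (median 64.7) and 32.1 to 59.0 CPM in PWT (median 53.5). Its 6 PNST lay above all other tumors, which 0.188% of all genes tested did in PNST, with S1-05 at 64.3 CPM and the FS S1-11 at 62.5 CPM as the nearest values. The size was small, with a log2 fold change of 0.42 (SE 0.17, edgeR adjusted p = 0.270), which missed the threshold.

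*ABCF1* was at 60.8 to 72.4 CPM in FS, 53.7 to 111 CPM in PNST (median 86.9) and 32.1 to 72.7 CPM in PWT (median 45.7). In PWT the log2 fold changes were -0.67 for *ABCF1* (SE 0.21, edgeR adjusted p = 0.0822), -0.86 for *ABCF2* (SE 0.28, edgeR adjusted p = 0.0885) and -0.38 for *ABCF3* (SE 0.18, edgeR adjusted p = 0.217). None of the 3 passed the threshold, though each reached an unadjusted p under 0.05. *ABCE1* had a log2 fold change of 0.42 in PWT (SE 0.24, edgeR adjusted p = 0.298). Of 6 translation partners of these genes, edgeR and DESeq2 called 0 in any comparison, with 1 at an unadjusted p-value under 0.05 for FS, 0 for PNST and 2 for PWT.

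The remaining genes of the family were too rare for a test. *ABCB5*, *ABCC2*, *ABCC6*, *ABCC8*, *ABCC12*, *ABCD2*, *ABCG8* and *ABCA13* had 2 to 46 counts over all 16 tumors and *ABCD4* had 75. *ABCB5* and *ABCC12* had 2 counts each. Of the ABC genes that carry other symbols, the chloride channel *CFTR* was too rare for a test. The antigen peptide transporters *TAP1* and *TAP2* were not called in any comparison by edgeR or DESeq2, and *TAP1* gave an FS log2 fold change of 0.81 (SE 0.54, edgeR adjusted p = 0.378).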

How the data were processed

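The data were raw read counts per gene, deposited by the authors without normalization, one column per sequencing run. According to the study's methods, ribosome-depleted RNA was made into Ion Total RNA-Seq libraries, sequenced in 2 groups, aligned to ROS-canfam-01 with STAR and counted with htseq-count. The tumors of each sequencing group, the strand setting and the versions are not given in the sources used here. Reads with more than 1 alignment are listed apart from the gene counts (9.11% to 31.6% of reads per tumor), so counts of closely related genes are uncertain.

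The 3 runs of each S1 tumor were summed, giving 16 samples of 507728 to 4311876 gene counts, grouped by molecular identity. Summary rows that name no gene were left out (69.4% to 77.1% of reads per tumor). Genes that reached 10 counts in 4 or more tumors were kept, scaled by TMM and tested with edgeR 4.0.16 (R 4.3.3), a quasi-likelihood test of each type against both others, with DESeq2 1.42.0 as an alternative. The test had been tried on simulated counts. CPM is the count per 1e6 counts on the genes kept, after TMM scaling. Standard errors are the absolute log2 fold change over the square root of F. Named were *ABCA2*, *ABCA9*, *ABCB11*, the drug pumps, the *ABCA5* to *ABCA9* row, *ABCC8* and *ABCC9*, called members, and those at an unadjusted p-value under 0.05. Neighboring and overlapping genes come from RefSeq's annotation of UU_Cfam_GSD_1.0, another assembly than the authors', so no coordinates or sequences are printed. The family, gene lists, markers and tests were chosen with earlier results of these data known. DESeq2, the tool that the study used, was run on all 44 members and edgeR also without the filter. Counts cover all members, but 2 of them are not reported singly here.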

Additional observations from a re-analysis of the deposited data

Results flagged for a closer look

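A total of 5 values stood apart within a group by Dixon's gap test, which was applied to 16 ABC genes, in 45 groups of 4 or 6 tumors with counts. Chance alone flags about 1 in 20 groups. The FS tumor S1-02 stood apart in *ABCB1* (58.4 CPM, next highest FS 3.33 CPM) and in *ABCC11* (21.9 CPM, next 3.68 CPM). The PWT S2-03 stood apart in *ABCC11* (9.29 CPM, next 1.39 CPM). S1-07 was the highest PWT in *ABCB11* (198 CPM, next 132 CPM), and it was the only PWT with the prefix S1. S1-04 was the highest PNST in *ABCC3* (16.7 CPM, next 9.35 CPM). The 2 tumors flagged in *ABCC11* are among the 5 with high keratinocyte markers.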

How the results depend on the processing

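With 28 alternatives, 36 fold changes of ABC genes were recomputed 990 times, less than their product because a gene could fall below the filter. Direction and side of the threshold were kept in 946, 29 lost the call, 12 gained it and 3 reversed: *ABCC3* in FS with S2 tumors alone (-0.73), *ABCC10* in PNST with S2 tumors alone (-0.12) and *ABCC11* in PWT with the prefix as a term (0.24). Most of the 946 were results not called in the main fit that stayed uncalled. All 29 losses fell on the 7 results called for FS and the 1 called for PWT. The 7 ABC genes called for FS, among 1457 of all genes, became 0 in the histological groups (205 of all genes), 4 after thinning to the total of S1-12 (25 members then tested, 320 of all genes called) and 1 in the S2 tumors alone, *ABCB11* (93 of all genes). DESeq2 called 10 of all 44 (2090 of all genes). An edgeR fit without the filter called 9, with *ABCB1* and *ABCB4* added (1936 of all genes). Leaving out 1 tumor gave 6 to 8 (911 to 1583 of all genes). *ABCB11*, *ABCA8*, *ABCA9* and *ABCG4* were called for FS in the S1 tumors alone, and *ABCA6* and *ABCC4* were not. For PNST, 0 became 1 with DESeq2 (291 of all genes) and was 0 to 0 on leaving out 1 tumor (0 to 3 of all genes). The 1 called for PWT, among 327 of all genes, became 3 with DESeq2 (875 of all genes). It was 0 in the histological groups, with the prefix as a term, in the S1 tumors alone and in the S2 tumors alone, where 0 of all genes were called. It was also 0 without the filter (128 of all genes), without S1-10 and S2-08 (140) and after thinning (71). On leaving out 1 tumor it was 0 to 1 (11 to 487 of all genes). PWT is left with 1 tumor in the S1 subset, and FS and PNST with 1 each in the S2 subset, assumed to vary like the others. The 2 subsets by prefix, and S1-04 and S1-05 summed into 1, were chosen after seeing the data, and the last changed no count. Other scalings moved the median of all genes by at most 0.05 (log2). The cause of these changes was not tested. No paired analysis was possible because each tumor has 1 type and the labels pair no tumors across types. At this depth 11 members were not tested, and *ABCG5* (85 counts in all tumors), *ABCC11* (198), *ABCA7* (204) and *ABCC4* (280) had the fewest counts of those tested.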
